A study of Mus musculus with 48 samples.

Results

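The CCN matricellular growth regulators are encoded by 6 genes, Ccn1 (Cyr61), Ccn2 (Ctgf), Ccn3 (Nov), Ccn4 (Wisp1), Ccn5 (Wisp2) and Ccn6 (Wisp3). All probe sets that the array platform assigns to these symbols were taken, which gave 11 of the 45037 non-control probe sets: 4 for Ccn1, 2 each for Ccn3 and Ccn4, and 1 each for Ccn2, Ccn5 and Ccn6. They were followed in NIH3T3 cells, an immortalised mouse fibroblast line, grown to confluence and given forskolin. This compound activates adenylyl cyclase, and the cyclic AMP it produces brings the clocks of a dish into step. Total RNA was collected every hour from hour 20 to hour 67 after forskolin, and each hour was measured on 1 Affymetrix array, 48 arrays in all. The arrays hold no untreated cells and no repeated hour. The later window (hours 44 to 67) and the earlier window (hours 20 to 43) are both from forskolin-treated cells, so what is compared below is time after the treatment, with culture time running alongside it. Whether neighbouring hours came from separately treated dishes is not stated in these sources, and p-values measure the scatter of the arrays around a fitted curve.

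CCN proteins are secreted and modular. They bind integrins and heparan sulphate proteoglycans at the cell surface, and act on adhesion, migration, matrix production and growth more than as structural parts of the matrix. Ccn1 and Ccn2 are known as rapidly induced targets of serum, of SRF and of YAP with TEAD, and Ccn2 also of TGF-β. Ccn3 and Ccn5 have been tied to growth restraint in several cell types, and Ccn4 and Ccn5 were found as genes induced by Wnt1.

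Values are log2 intensities. They can be compared between hours for 1 probe set, but not between probe sets. The median of all probe set means was 6.67, and 10 of the 11 CCN probe sets had a mean above it, the exception being that of Ccn6. All 10 fibroblast markers looked up had means above that median too, from 16.26 to 19.01, against 0 of 5 epithelial, 0 of 5 endothelial and 1 of 5 macrophage markers (Cd68, a lysosomal protein not confined to macrophages). Array quality was uneven in ways that bear on several CCN values. In 10 arrays (hours 20, 22, 24, 36, 38, 40, 43, 45, 46 and 67) the difference between the 3′ and 5′ β-actin probe sets was over 1.4 (log2), against a median of 1.13 over all arrays. At hours 52 to 55 the BioB spike-in averaged 0.90 above the other arrays.

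Over the time course Ccn1, Ccn2 and Ccn5 fell, while Ccn3 and Ccn4 rose and Ccn6 stayed at the floor of the array. Each probe set was fitted with a linear trend together with a 24 h cosine in limma, with Benjamini-Hochberg adjustment over all 45037 probe sets. By this test 6 of the 11 CCN probe sets fell (adjusted p from 2.67e-14 to 0.0495) and 4 rose (adjusted p from 2.53e-05 to 0.0281). The same test called 16.2% of all probe sets as falling and 14.2% as rising, and 26.4% in each direction among probe sets above the median, so a trend as such was common in these arrays. In bulk RNA, fewer cells of a type and less RNA per cell cannot be told apart.

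**Figure D1:**
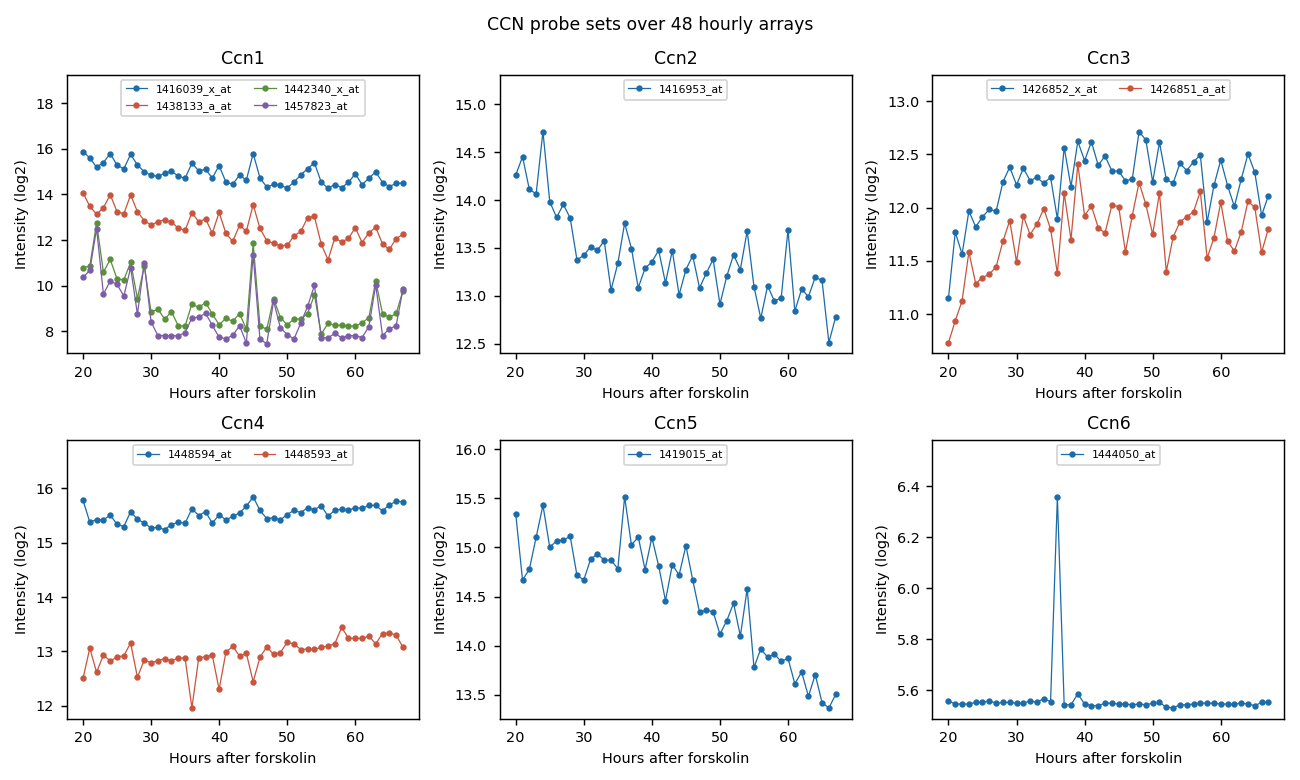
Log2 intensity of the 11 CCN probe sets against hours after forskolin, 1 panel per gene, with 1 point per array and 1 colour per probe set. Ccn2 drops mostly before hour 30 and Ccn5 mostly after hour 44, Ccn3 climbs in the early hours and then levels off, and Ccn6 leaves its floor on 1 array only, hour 36.

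Ccn5, whose protein lacks the C-terminal cystine-knot module of the other members, had the steepest slope of the family. In hours 62 to 67 its values were 13.73, 13.48, 13.71, 13.42, 13.37 and 13.50, against 15.34, 14.67, 14.78, 15.10, 15.43 and 15.00 in hours 20 to 25. The blocks did not overlap, and the means were 13.53 ± 0.15 in the last 6 hours and 15.05 ± 0.30 in the first 6 (SD, n = 6 each), a level 2.87-fold lower at the end. The slope was −0.92 ± 0.07 log2 per day (SE, adjusted p = 2.67e-14 by limma), and only 301 of the 45037 probe sets had a more negative one. In 23 of the 24 pairs of arrays taken 24 h apart, the array of the later window was the lower. The fall was not even over time. Means of successive 6 h blocks, starting with hours 20 to 25, were 15.05, 14.92, 15.00, 14.85, 14.58, 14.21, 13.85 and 13.53, so that the first 4 blocks kept to 14.85 to 15.05 and each later block lay below the one before. With separate slopes, Ccn5 had −1.55 ± 0.20 log2 per day from hour 44 on and −0.38 ± 0.20 before it, a difference of −1.18 ± 0.21 (adjusted p = 0.000177 by limma). The quadratic term that measures the same bend gave −1.18 ± 0.21 log2 per day per day (adjusted p = 0.000134).

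Ccn2, the connective tissue growth factor gene, fell as well, with its largest step among the early hours. Its values were 13.07, 12.99, 13.20, 13.16, 12.51 and 12.78 in hours 62 to 67, against 14.26, 14.45, 14.11, 14.07, 14.72 and 13.98 in hours 20 to 25. No late value reached the lowest early one, and the means of 12.95 ± 0.26 at the end and 14.27 ± 0.28 at the start (SD, n = 6 each) put the level 2.49-fold lower at the end. The slope was −0.56 ± 0.08 log2 per day (adjusted p = 7.59e-08), and again 23 of 24 pairs 24 h apart had the lower value in the later window. The 6 h means ran 14.27, 13.65, 13.45, 13.30, 13.23, 13.27, 13.05 and 12.95, with the largest step between the first and the next block. The separate slopes were −0.32 ± 0.25 log2 per day in hours 44 to 67 and −1.13 ± 0.25 in hours 20 to 43, and their difference of 0.81 ± 0.26 lay at the threshold (adjusted p = 0.04999), while the quadratic term missed it (0.78 ± 0.26, adjusted p = 0.0575). Without hours 20 to 25 that term was 0.17 (adjusted p = 0.681), so the uneven course of Ccn2 rested on those arrays, whereas its slope stayed past the test without them. Isolated hours stood above their neighbours late in the course, at 13.68 for hour 54 and 13.69 for hour 60.

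Ccn1 (Cyr61), an immediate-early gene in growth-factor-stimulated fibroblasts, fell in all 4 of its probe sets over the full course, the bright pair also without hours 20 to 25 and the dim pair not. The brightest, 1416039_x_at, held 14.71, 14.99, 14.52, 14.35, 14.49 and 14.49 in hours 62 to 67, against 15.88, 15.61, 15.19, 15.40, 15.80 and 15.29 in hours 20 to 25. These blocks did not overlap, with means of 14.59 ± 0.23 at the end and 15.53 ± 0.28 at the start (SD, n = 6 each), 1.91-fold lower at the end. Its slope was −0.51 ± 0.09 log2 per day (adjusted p = 1.51e-05). The next brightest, 1438133_a_at, gave −0.85 ± 0.13 (adjusted p = 3.11e-07) and a level 2.74-fold lower at the end. In both, 19 of the 24 pairs 24 h apart had the lower value in the later window. The suffix _x_at marks probes that may also match other transcripts, and _a_at probes shared by transcript variants of a gene.

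The other Ccn1 probe sets, 1442340_x_at and 1457823_at, were designed from the same expressed sequence tag and behaved unlike the bright pair in detail. They were dim and scattered: the SD of hour-to-hour changes, divided by the square root of 2, was 0.82 and 0.96 in them, compared with 0.29 and 0.40 in the bright ones and a median of 0.08 over all probe sets. Values of 1442340_x_at ranged from 7.88 at hour 55 to 12.76 at hour 22 with a median of 8.78, and single hours such as 29 (10.87), 45 (11.87) and 63 (10.21) stood far above their neighbours. The 1457823_at values at those hours were 12.50 (hour 22), 11.01 (hour 29), 11.36 (hour 45) and 10.04 (hour 63), with a median of 8.22. Hours 22 and 45 were arrays of high β-actin difference, and hours 29 and 63 were not. Slopes were −0.87 ± 0.24 log2 per day for 1442340_x_at (adjusted p = 0.00356) and −0.71 ± 0.28 for 1457823_at (adjusted p = 0.0495). Without hours 20 to 25 neither slope passed the test (−0.46, adjusted p = 0.181, and −0.24, adjusted p = 0.521), nor did either on 6 h means (−1.03, adjusted p = 0.151, and −0.93, adjusted p = 0.226). The call of 1457823_at was also lost on leaving out any 1 of 29 of the 48 arrays, and its slope was smallest without hour 22 (−0.57, adjusted p = 0.0875). Both bent upwards (curvature 3.21 ± 0.74, adjusted p = 0.00317, and 3.42 ± 0.91, adjusted p = 0.0119, in log2 per day per day).

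RefSeq's promoter table (GRCm38.p6) matched Ccn1 and Ccn6. The Ccn1 promoter is shown because the gene is known as a target of TEAD factors and because forskolin acts through cyclic AMP. The gene lies on the minus strand at chr3:145646971-145649985. Printed are the 150 bases before its annotated start, chr3:145649986-145650135, minus strand, with motif matches in capitals.
Ccn1: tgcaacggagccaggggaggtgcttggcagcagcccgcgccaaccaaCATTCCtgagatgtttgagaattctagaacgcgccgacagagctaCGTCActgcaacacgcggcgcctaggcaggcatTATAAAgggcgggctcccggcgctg
The TEAD motif CATTCC, sought on both strands, began 103 bases before the start, and 7.59% of the 32851 promoter windows of this length in the table held it. TGACG, the core of the cyclic AMP response element, was found on the other strand as CGTCA, beginning 58 bases before the start, and was present in 13.3% of windows. TATAAA, sought only on the strand printed, began 25 bases before the start and was present in 4.84% of windows. The capitals do not overlap. The AP-1 motif TGANTCA, the E-box CACGTG and the SRF-binding CArG box had no match in this window, with shares over all windows of 4.24%, 4.30% and 0.916%. A match in letters is not a site shown to be bound.

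Ccn3, the nov gene of nephroblastoma, rose early and then stopped. Its brightest probe set, 1426852_x_at, held 12.01, 12.26, 12.50, 12.33, 11.93 and 12.11 in hours 62 to 67, against 11.15, 11.77, 11.56, 11.97, 11.82 and 11.91 in hours 20 to 25. The blocks touched, the lowest late value (11.93) lying just under the highest early one (11.97), and the means of 12.19 ± 0.22 at the end and 11.70 ± 0.30 at the start (SD, n = 6 each) differed 1.41-fold. The 6 h means, in time order, were 11.70, 12.19, 12.25, 12.46, 12.43, 12.35, 12.27 and 12.19, highest in the middle of the course. The linear slope was 0.21 ± 0.07 log2 per day (adjusted p = 0.0281), and the bend had the smaller adjusted p: slopes of −0.05 ± 0.18 in hours 44 to 67 and 1.20 ± 0.18 in hours 20 to 43 differed by −1.25 ± 0.19 (adjusted p = 7.34e-06). The other Ccn3 probe set, 1426851_a_at, gave a slope of 0.24 ± 0.08 (adjusted p = 0.0161), with −0.13 ± 0.22 in the later window and 1.04 ± 0.22 in the earlier, and the pair correlated over the 48 arrays (r = 0.913, and 0.896 after removal of a linear trend). In each of them 14 of the 24 pairs of arrays 24 h apart were higher in the later window, and the contrast of the windows with hour of the cycle as block did not pass (0.16, adjusted p = 0.166, and 0.22, adjusted p = 0.115). Without hours 20 to 25 neither probe set had a slope past the test (−0.0062, adjusted p = 0.942, and 0.03, adjusted p = 0.716). Leaving out hour 20 alone, an array of high β-actin difference with the lowest value of both probe sets, was enough to lose both calls (adjusted p = 0.115 and 0.0679), and leaving out hour 22, another such array, lost that of 1426852_x_at (adjusted p = 0.0538).

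Ccn4, found as a Wnt1-induced gene, rose slowly. Its brightest probe set, 1448594_at, had the smallest range of the 11 probe sets, 0.60 over the 48 arrays, from 15.24 at hour 32 to 15.85 at hour 45. In hours 62 to 67 it held 15.69, 15.69, 15.59, 15.70, 15.76 and 15.76, against 15.78, 15.38, 15.43, 15.42, 15.51 and 15.34 in hours 20 to 25. Only hour 20 among the early values reached the late ones, so the blocks overlapped through that array. The slope was 0.16 ± 0.03 log2 per day (adjusted p = 2.53e-05), and 22 of 24 pairs 24 h apart were higher in the later window. The 1448593_at probe set had a slope of 0.32 ± 0.06 (adjusted p = 3.12e-05), also with 22 of 24 pairs higher, and its last 6 hours (13.24 ± 0.11) lay wholly above its first 6 (12.81 ± 0.21; SD, n = 6 each). No bend passed the test in either (adjusted p = 0.312 for 1448594_at and 0.0847 for 1448593_at).

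Ccn6 was measured by 1 probe set, 1444050_at, at or close to the lowest level the arrays give. It stood at 5.58 or lower on every array but hour 36, where it was 6.36, and hour 36 was the array with the highest β-actin difference. The slope was −0.04 ± 0.03 log2 per day (adjusted p = 0.240). A fall in Ccn6 transcript would not be detectable from this level.

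**Figure D2:**
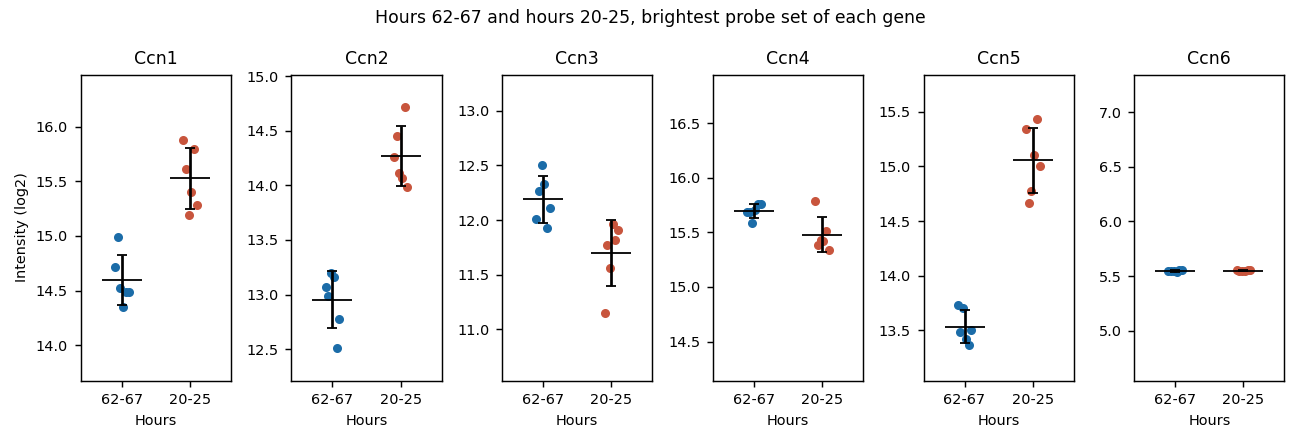
Log2 intensity of the brightest probe set of each CCN gene in hours 62 to 67 (left, blue) and hours 20 to 25 (right, red). Points are arrays and bars are the mean with 1 SD (n = 6), and every panel spans the same log2 range. The blocks are apart for Ccn1, Ccn2 and Ccn5, touch or overlap for Ccn3 and Ccn4, and coincide for Ccn6.

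Counted over the family, hours 62 to 67 lay wholly below hours 20 to 25 in 5 of the 11 probe sets (3 of Ccn1, and those of Ccn2 and Ccn5), and wholly above in 1 (1448593_at of Ccn4). The shares over all probe sets were 6.59% below and 6.53% above. A quadratic bend passed the test in 5, of which 3 bent downwards (Ccn3, both probe sets, and Ccn5) and 2 upwards (the dim Ccn1 pair), beside 4.38% of all probe sets bending down and 3.21% bending up. The difference between the slopes of the windows passed in 6, the same 5 and Ccn2. It was below 0 in 3 and above 0 in 3, where 4.43% and 3% of all probe sets were called.

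**Figure D3:**
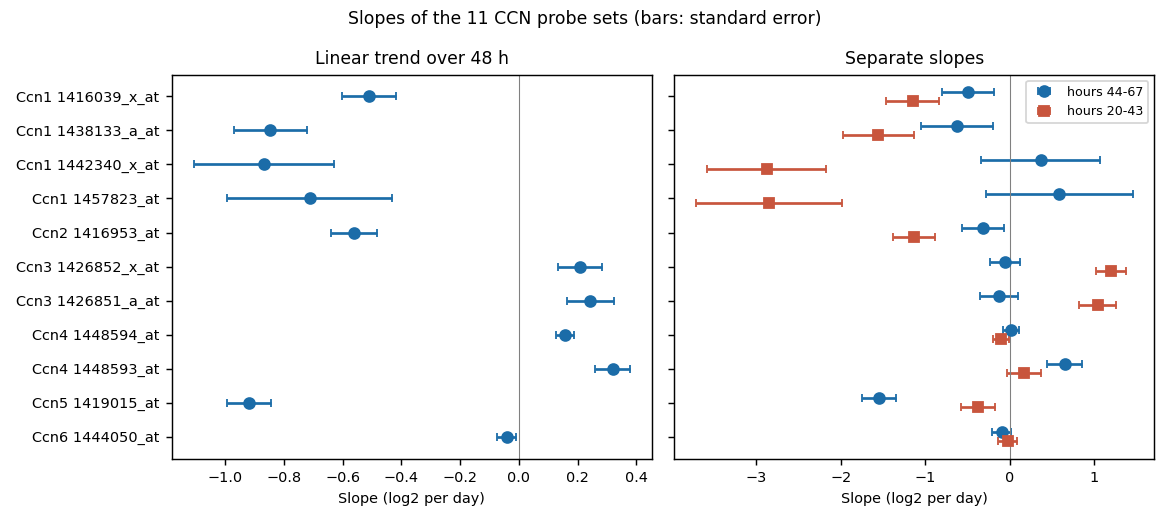
Fitted slopes of the 11 CCN probe sets in log2 per day, as one linear trend over all 48 arrays (left) and as separate slopes (right) for hours 44 to 67 (blue circles) and hours 20 to 43 (red squares), with bars of 1 standard error. Ccn5 fell faster in the later hours (−1.55 against −0.38), while Ccn3 1426852_x_at was flat in the later hours and climbed in the earlier ones (−0.05 against 1.20).

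Whether the family followed the clock that forskolin had set was asked next. No CCN probe set passed the 24 h cosine test, at an overall rate of 0.293% of probe sets (132 of 45037 at adjusted p under 0.05 in limma). At an unadjusted p under 0.05, 3 of the 11 CCN probe sets and 4258 of all passed. These 3 were the dim Ccn1 pair, with amplitudes of 0.58 ± 0.18 and 0.61 ± 0.22 (log2, mean to peak, adjusted p = 0.326 and 0.446), and Ccn4 1448594_at, with 0.07 ± 0.02 (adjusted p = 0.345). The brightest probe sets of the other genes had amplitudes of 0.06 ± 0.07 for Ccn1, 0.10 ± 0.06 for Ccn2, 0.08 ± 0.06 for Ccn3 and 0.07 ± 0.06 for Ccn5. For scale, all 6 clock genes looked up passed in the same arrays, led by Nr1d1 (1.15 ± 0.14) and Per3 (0.95 ± 0.05). The pair of tests that leaves the period free, a cosine fit of 6 to 30 h and Fisher's G-test with Storey q-values, called 0 of the 11 probe sets at 24, 12 or 8 h, where 91 (0.202%), 0 and 8 (0.0178%) of all probe sets were called. The best-fit periods of the bright Ccn1 probe sets (8.5 and 8.3 h) and of Ccn4 1448594_at (8.1 h) were short. Their unadjusted p-values by the cosine fit were 0.0602, 0.166 and 0.0367, and their q-values were 0.0809, 0.0877 and 0.0809. A Storey q can lie below its p, because it is scaled by the estimated share of null probe sets, here 0.267. The strongest Fourier period was 48 h, the length of the series, in all 11.

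Several members were correlated once a straight line was removed. That step leaves slow bends in the values, so r and rho take in both bends and hour-to-hour scatter. After subtraction of a straight line, Ccn1 1416039_x_at and Ccn4 1448594_at had r = 0.688 and rho = 0.690 (permutation p = 1e-05 for both, the smallest that 100000 permutations can give, and 0.00015 and 7.5e-05 after adjustment over 15 pairs), although Ccn1 fell and Ccn4 rose. Ccn1 and Ccn2 had r = 0.581 and rho = 0.587 (adjusted permutation p = 0.00015 and 7.5e-05). Ccn3 was negatively correlated with Ccn4 (r = −0.544, rho = −0.503, adjusted permutation p = 0.0010 and 0.00175) and, less closely, with Ccn1 (r = −0.370, rho = −0.460, adjusted permutation p = 0.0324 and 0.00472). Each gene entered these pairs by its brightest probe set only. The other Ccn4 probe set, 1448593_at, was not paired with other genes, and its detrended r with 1448594_at was −0.329. The Ccn4 correlations therefore hold for 1448594_at and not for the gene. Without the pair of arrays in which the first-named member lay farthest from its median, r was 0.662 for Ccn1 with Ccn4, 0.625 for Ccn1 with Ccn2, −0.372 for Ccn3 with Ccn4 and −0.485 for Ccn1 with Ccn3. In the 38 arrays without a high β-actin difference r was 0.562 for Ccn1 with Ccn4, 0.689 for Ccn1 with Ccn2, −0.383 for Ccn3 with Ccn4 and −0.362 for Ccn1 with Ccn3. The one other pair past the threshold by r, Ccn5 and Ccn6 (r = 0.401, rho = 0.008, adjusted permutation p = 0.0324 and 0.997), rested on hour 36, since r was 0.00033 without that array, against 0.412 without hour 21. By rho alone, Ccn3 with Ccn5 (0.401, adjusted permutation p = 0.0146), Ccn2 with Ccn4 (0.348, adjusted permutation p = 0.0395) and Ccn2 with Ccn3 (−0.335, adjusted permutation p = 0.0439) passed as well. Points of each pair share an array and neighbouring hours are ordered in time, so the permutations treat as independent what may not be.

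**Figure D4:**
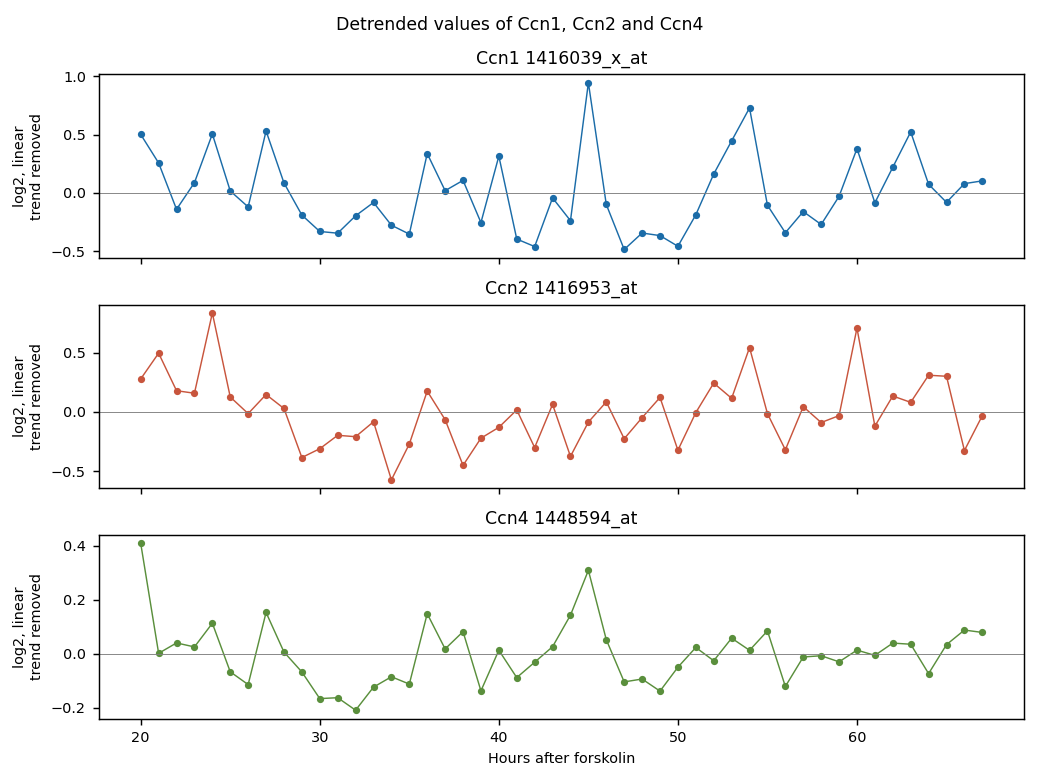
Log2 values of Ccn1 1416039_x_at, Ccn2 1416953_at and Ccn4 1448594_at after removal of a straight line, against hours after forskolin. Points are arrays, and each panel has its own scale. Ccn1 and Ccn4 share high points at hours 20, 27, 36 and 45, and Ccn1 and Ccn2 at hours 24, 54 and 60.

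Part of this scatter ran with the β-actin difference of the array. With that difference as a covariate in the fit, Ccn1 1416039_x_at rose by 0.61 ± 0.14 log2 per log2 unit of it (adjusted p = 0.000233), 1438133_a_at by 0.78 ± 0.19 (adjusted p = 0.000617), Ccn5 by 0.53 ± 0.11 (adjusted p = 5.78e-05), and Ccn6 by 0.21 ± 0.05 (adjusted p = 0.000186). Ccn6, however, left its floor only at hour 36, the array of highest difference (2.42). At hours 20 and 45, with differences of 2.33 and 2.22, it held 5.56 and 5.55. The Ccn4 probe sets went opposite ways, 1448594_at by 0.26 ± 0.03 (adjusted p = 3.91e-08) and 1448593_at by −0.54 ± 0.07 (adjusted p = 8.89e-09). That is also how they differed after detrending: r between them was −0.329 over all arrays and 0.284 in the 38 arrays without a high difference. Ccn2 (0.20 ± 0.14, adjusted p = 0.318) and both Ccn3 probe sets (adjusted p = 0.0685 and 0.125) did not pass. Over all probe sets 36.7% passed. The falls of Ccn2, of Ccn5 and of the bright Ccn1 pair and both rises of Ccn4 stayed past the trend test with the covariate, while both rises of Ccn3 did not (0.16, adjusted p = 0.0793, and 0.20, adjusted p = 0.0516). Slopes with the covariate were −0.42 log2 per day for Ccn1 1416039_x_at, −0.72 for 1438133_a_at, −0.53 for Ccn2 and −0.84 for Ccn5. They were 0.20 for Ccn4 1448594_at and 0.23 for 1448593_at. A term for hours 52 to 55, which passed in 50.1% of all probe sets, passed in 1 CCN probe set, Ccn1 1416039_x_at (0.55 ± 0.19, adjusted p = 0.0153). The part of RNA or array quality in the detrended pattern was not tested.

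**Figure D5:**
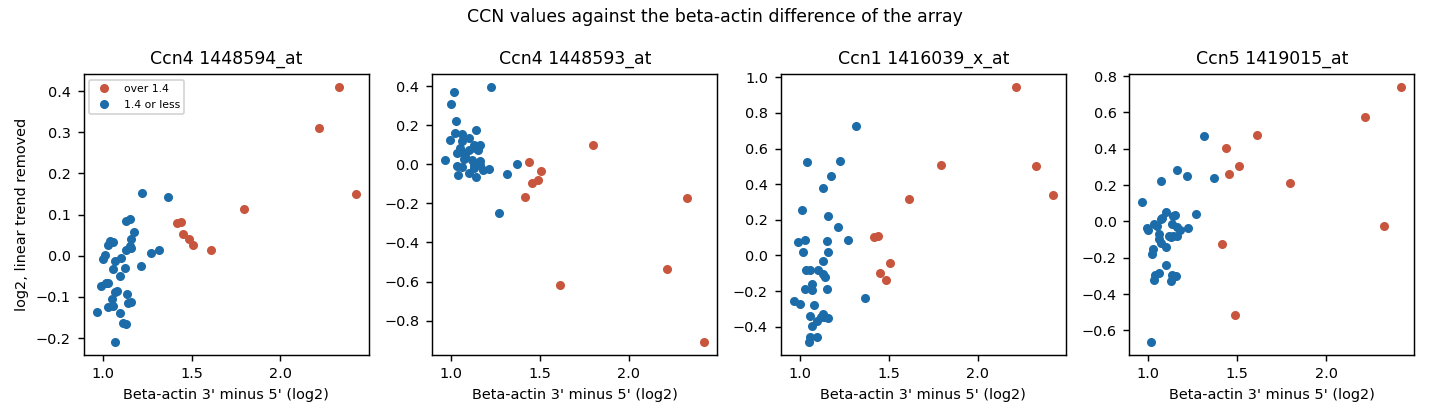
Log2 values, linear trend removed, of the Ccn4 probe sets, Ccn1 1416039_x_at and Ccn5 against the β-actin 3′ minus 5′ difference of the same array (log2). Red points are the 10 arrays above 1.4 and blue points the other 38. Ccn4 1448594_at climbs with the difference (0.26 per unit) and 1448593_at drops (−0.54 per unit).

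Each brightest probe set above the median was then set against all other single-gene probe sets above it, to name the 5 genes of most similar pattern over the 48 arrays. For Ccn5 these were Serpina3n (r = 0.973), a secreted protease inhibitor, Steap2 (0.960), Cdsn (0.958), Bub1b (0.957), a mitotic checkpoint kinase, and Gria1 (0.957). After detrending they were Idh2 (0.872), Serpina3n (0.868), Agt (0.865), the angiotensin precursor, Spidr (0.863) and Ezr (0.860). The closest to Ccn2 were Tes (0.868), a focal adhesion protein, and Ccnb2 (0.868), Sgo1 (0.866), BC055324 (0.864) and Mcm7 (0.864), of which Ccnb2 and Sgo1 act in mitosis and Mcm7 in DNA replication. Tes (0.670), Sgo1 (0.654), Mcm7 (0.632), Pttg1 (0.629) and Plk2 (0.629) led for Ccn2 after detrending. Ccn1 was closest to Spag5 (0.859), Pkm (0.859), Abcc1 (0.856), Ptprn (0.848) and Uap1 (0.841). Once detrended its neighbours changed to Egr2 (0.792), Egr1 (0.789) and Myc (0.744), all immediate-early transcription factors, with Spag5 (0.738) and Kdelr3 (0.734). Of these factors only Egr2 (0.802) was among the 5 closest to the other bright Ccn1 probe set, 1438133_a_at, after detrending. In the trend test by limma Myc fell (−0.76 ± 0.06 log2 per day, adjusted p = 7.24e-15). Egr2 (0.02 ± 0.09, adjusted p = 0.860) and Egr1 (0.14 ± 0.06, adjusted p = 0.0501) did not pass.

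Ccn3 had other neighbours. Hmgcs1 (0.845), Msmo1 (0.838), Nsdhl (0.814), Fdps (0.797) and Lss (0.788) came first, and all of them encode enzymes of cholesterol synthesis. After detrending the list was Hmgcs1 (0.845), Msmo1 (0.803), Nsdhl (0.793), Kcnab1 (0.790), a potassium channel subunit, and Cyp51 (0.787), another sterol enzyme. Ccn4 1448594_at went with Entpd5 (0.866), Mrc2 (0.864), a collagen receptor, Col3a1 (0.854), Lman1 (0.815) and Ifi27 (0.812), and after detrending with Lman1 (0.815), a cargo receptor of the endoplasmic reticulum, Col20a1 (0.804), Mogs (0.803), Slc25a20 (0.797) and Plekhg3 (0.796). These are likenesses over arrays that share their quality differences, and are given as descriptions.

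The pathways around the family were read from lists of their known members, each gene by its brightest probe set. For comparison, 19.3% of the brightest probe sets of all genes fell and 15.9% rose, and the median slope of all probe sets was −0.0034 log2 per day. Other known YAP and TAZ targets did not share 1 direction: of 20 measured, 5 fell and 6 rose, with a median slope of −0.0089. Foxf2, a forkhead factor, fell (−0.55 ± 0.04, adjusted p = 1.45e-16), whereas Tgfb2 rose (0.66 ± 0.07, adjusted p = 1.07e-11), as did Fjx1 (0.46 ± 0.07) and Dock5 (0.41 ± 0.04). Fjx1 was dim, with a mean of 6.79 beside the median of 6.67 over all probe set means. Of the 20 targets, 18 had means above that median. Ankrd1, often used beside Ccn1 and Ccn2 as a reporter of YAP activity, had −0.02 ± 0.04 (adjusted p = 0.721). Of 18 measured Hippo pathway and TEAD genes, 0 fell and 7 rose by their brightest probe sets (3 fell and 10 rose where any probe set of a gene counted), led by the angiomotins Amot (0.38 ± 0.02) and Amotl1 (0.30 ± 0.05), with Nf2 (0.19 ± 0.04), the merlin gene, and Vgll3 (0.17 ± 0.03), a TEAD cofactor.

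In the MRTF and SRF list, 7 of 12 genes fell, as Ccn1 and Ccn2 did, and 1 rose (median slope −0.12). Mrtfa, the actin-regulated SRF cofactor, had −0.45 ± 0.06 log2 per day (adjusted p = 7.32e-09), the smooth muscle gene Tagln −0.31 ± 0.08, Flna (filamin A) −0.25 ± 0.04 and Srf itself −0.15 ± 0.04 (adjusted p = 0.000824). Of the falling genes, Cnn1 lay at the floor of the array. In the TGF-β list, 2 of 11 fell and 5 rose (5 and 6 where any probe set counted). The ligands Tgfb2 and Tgfb3 (0.34 ± 0.02) and the repressor Skil (0.26 ± 0.03) rose, while the receptor Tgfbr1 fell (−0.11 ± 0.03).

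Among integrin subunits and other CCN receptors, 5 of 18 fell and 6 rose. Of the 18, 15 had means above the median of all probe sets. Itgb2, the leukocyte integrin β chain, had by far the steepest slope of the list, 2.11 ± 0.18 log2 per day (adjusted p = 1.24e-13), with 11.39 ± 0.28 in hours 62 to 67 and 7.76 ± 0.48 in hours 20 to 25 (SD, n = 6 each). Its partner chain Itgam was at the floor (mean 5.50). Itga5, the fibronectin receptor α chain, fell (−0.22 ± 0.05), as did Itga2b (−0.22 ± 0.06), while Itgb3 rose (0.36 ± 0.06) at a mean below the median of all probe sets. Itgb1 (0.02 ± 0.02, adjusted p = 0.436), which partners several CCN-binding α chains, did not pass the test.

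Other matricellular genes moved in both directions, with 3 of 12 falling and 4 rising. Of the 12, 10 had means above the median of all probe sets. The related pair Smoc2 and Smoc1 went in opposite directions. Smoc2 reached 16.47 ± 0.11 in hours 62 to 67, against 14.18 ± 0.24 in hours 20 to 25 (SD, n = 6 each), with a slope of 1.30 ± 0.07 log2 per day (adjusted p = 5.64e-20). Smoc1 had 12.42 ± 0.18 in the last 6 hours and 14.28 ± 0.17 in the first 6, with a slope of −0.98 ± 0.05 (adjusted p = 2.43e-21). Tenascin-C (Tnc) fell (−0.60 ± 0.05), and Thbs3 fell by a less certain −0.36 ± 0.13 (adjusted p = 0.0385). The IGF-binding proteins, which share a module with the CCN family, divided evenly, 2 of 7 falling (Igfbp4, −0.57 ± 0.05, and Igfbp7, −0.49 ± 0.02) and 2 rising (Igfbp5, 0.57 ± 0.07, and Igfbp6, 0.19 ± 0.05). These were the 4 IGF-binding proteins with means above the median of all probe sets. The others had means of 5.65 or lower, near the floor of the array. Of 9 genes of the Wnt pathway that acts upstream of Ccn4, 6 rose and 1 fell, and the median slope was 0.19. The receptor gene Fzd2 (0.36 ± 0.02, adjusted p = 9.95e-20) and the transcription factor genes Tcf7l2 (0.25 ± 0.04) and Lef1 (0.24 ± 0.07, adjusted p = 0.0096) were among those that rose. Axin2, a Wnt target, rose by 0.30 ± 0.07 at a mean of 5.68, below the median of all probe sets. None of the genes in these pathway lists passed the 24 h test (0.401% of the brightest probe sets of all genes did).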

How the data were processed

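RNA of forskolin-treated NIH3T3 cells was measured on 48 arrays, hours 20 to 67. The deposited values are linear probe set intensities, which the authors had corrected for background and normalized across arrays. The study's methods name GCRMA for expression values and the submitters' processing notes name MAS5. Versions and the scaling constant were not found in these sources, so levels were read within the series only. Arrays give no read depth, and their number limits the precision.

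Intensities were log2-transformed with no constant added. The 64 control probe sets stayed out of the tests. Slopes (per 24 h), 24 h amplitudes and curvature (quadratic term, as change of slope per day) were obtained with limma 3.58.1 (R 4.3.3), by moderated tests and Benjamini-Hochberg adjustment at 0.05 over 45037 probe sets. The free-period cosine fit (6 to 30 h in steps of 0.1 h, 2000000 Gaussian null series) stood in for COSOPT and followed removal of a linear trend. Fisher's G-test used 23 Fourier periods on values with the trend left in. Both gave Storey q-values (spline of 3 degrees of freedom), and a call needed both under 0.05 in a matching period. The slope and rhythm scripts were tested on simulated data. Other software was Python 3.11.15, scipy 1.17.1, numpy 2.4.6, matplotlib 3.10.9 and pandas 2.3.3.

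Gene symbols came from the platform table (34945 probe sets with 1 symbol, 932 with several, 9160 with none). Named were all CCN probe sets, the 5 genes most like the brightest probe set of each CCN gene (Pearson r, raw and detrended), up to 4 list members of largest slope and up to 2 of largest 24 h amplitude past the test. Ankrd1, Itgam, Itgb1, Cnn1 and Cd68 fall outside this rule and were named for their roles after their values were seen. List members without a probe set of a single symbol were not analysed here and are not in the counts of measured genes. Promoter sequence and gene positions are from RefSeq, GRCm38.p6. The members and lists were chosen with earlier results of these data known. Alternatives were other normalizations, an added constant of 64, quality terms, arrays left out, 6 h means, a contrast of the windows and other rhythm settings. Separate slopes per window, and correlations without arrays of high β-actin difference or without hour 36 or 21, were added after seeing the data.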

Additional observations from a re-analysis of the deposited data

Results flagged for a closer look

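In 6 probe sets the slope in hours 44 to 67 differed from that in hours 20 to 43 by the test of the difference itself (limma, Benjamini-Hochberg over all probe sets), as it did in 4.43% of all probe sets with a difference below 0 and 3% above 0. The difference, later minus earlier, was 3.25 log2 per day for Ccn1 1442340_x_at (adjusted p = 0.00306) and 3.44 for Ccn1 1457823_at (adjusted p = 0.0125), both scattered probe sets whose highest value was at hour 22. It was 0.81 for Ccn2 (adjusted p = 0.04999), whose curvature was 0.17 without hours 20 to 25 (adjusted p = 0.681). It was −1.25 for Ccn3 1426852_x_at (adjusted p = 7.34e-06) and −1.17 for Ccn3 1426851_a_at (adjusted p = 0.000726), and −1.18 for Ccn5 (adjusted p = 0.000177).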

How the results depend on the processing

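The count of CCN probe sets past the trend test, 10 of 11, was 6 without hours 20 to 25, 6 on 6 h means, 7 with the β-actin covariate, 7 by the contrast of the windows with hour of the cycle as block, 8 without arrays of high β-actin difference, 9 with centring on array medians, and 7 to 10 when single arrays were left out. Both Ccn3 calls and that of Ccn1 1457823_at were lost under the block, and no other. Fewer arrays or points enter the fits without arrays and on 6 h means. The count past the curvature test, 5, was 8 with the β-actin covariate, where the bright Ccn1 pair and Ccn2 were added, and 5 to 6 on leaving out single arrays. The counts past the 24 h test and past both rhythm tests were 0 under every alternative run, single arrays left out or replaced by the mean of their neighbours included. With any probe set of a gene in place of the brightest, 13 Hippo and TEAD genes passed the trend test against 7, and 11 TGF-β genes against 7.

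The Ccn2 bend passed the test with quantile normalization, among probe sets above the median, with the β-actin covariate and with the BioB hours 52 to 55 as a term (adjusted p from 0.0272 to 0.0342). It missed the test with centring on array medians (0.0752), with the added constant (0.0578), without arrays of high β-actin difference (0.148) and without hours 20 to 25 (0.681). Ccn2, Ccn5, both Ccn4 probe sets and the bright Ccn1 pair kept the direction and the call of their slopes in every alternative. The Ccn3 slope turned to −0.0062 (1426852_x_at) without hours 20 to 25, and the Ccn4 1448594_at curvature to −0.011, neither past the test. The Ccn6 curvature lay between −0.092 and 0.0047 with single arrays left out, positive without hour 36. The cause was not tested beyond what the settings leave out. Hour 36 also decided the Ccn6 trend call (−0.0061 log2 per day, adjusted p = 0.0313, without it), on a probe set at the floor. With 1 array per hour, a departure at a single hour cannot be told apart from array error.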
